A study of Mus musculus with 2 samples.

Results

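The genes described here encode 8 proteins with which oocytes store maternal mRNA and hold back its translation: Zar1, Zar1l, Ybx1, Ybx2, Patl2, Lsm14a, Lsm14b and Ddx6. They were taken by symbol from a table of 11262 mouse genes, and all 8 were present. The table holds RNA-seq values of the second polar body (PB2) and of the zygote from which it had been separated, both from untreated C57BL/6 embryos (C57BL/6N in the study's methods) late in the one-cell stage, after the zona pellucida was dissolved with acid and the 2 were parted with trypsin and pipetting. Each library was made from pooled PB2s or pooled zygotes and from amplified polyA RNA, and there was 1 library of each. There is therefore no replicate spread and no test, and every difference is a description of 2 libraries.

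A growing mouse oocyte makes far more mRNA than it translates and packs much of it into ribonucleoprotein particles, from which messages are released at meiotic maturation and after fertilization. Y-box proteins coat the stored mRNA. ZAR1 binds it and is needed to assemble the mitochondria-associated compartment in which mouse oocytes keep it. DDX6, an RNA helicase, works with LSM14 and PATL proteins to repress translation of bound mRNA. PB2 receives a small portion of the egg cytoplasm at the second meiotic division.

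Values were given by the authors in TPM, which scales the reads of a gene by its length and then to a fixed total per library. It is a proportion, so fewer molecules per cell and a smaller share of the RNA cannot be told apart, and the depth of the libraries is unknown. Because polyA RNA was amplified, a level may also depend on the length of the poly(A) tail, which was not measured. Libraries were compared by the log2 ratio, log2 of PB2 TPM plus 1 over zygote TPM plus 1, over the 10645 genes with at least 1 TPM in either library. The median log2 ratio of these genes was 0.21. Oocyte markers were present in both libraries, with 17 of 18 in the table and a summed level of 67512 TPM (zygote) and 61775 TPM (PB2). Of 18 cumulus and granulosa markers 4 were in the table, with a sum of 81.0 TPM (zygote) and 80.3 TPM (PB2), nearly all of it Cyp19a1 (72.2 and 70.9 TPM). Of 10 sperm and spermatid markers, Prm2 (19.8 and 22.0 TPM) and Akap4 (1.00 and 0.60 TPM) were in the table. Of 6 blood markers none was in the table. It is not known whether a gene without a row was undetected or left out.

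The 8 genes include 3 pairs of paralogs, and the coding stretch in which each pair is most alike is shown to make plain how far the partners can be told apart by sequence. The stretches come from GENCODE M21 (GRCm38), from the longest coding transcript per gene, are written 5′ to 3′, and have 90 bases each. Capitals mark the bases that differ between the partners. The ZAR1 stretch covers bases 793 to 882 of the Zar1 coding sequence and 592 to 681 of that of Zar1l, in the cysteine-rich region that both proteins carry near the C-terminus.
Zar1: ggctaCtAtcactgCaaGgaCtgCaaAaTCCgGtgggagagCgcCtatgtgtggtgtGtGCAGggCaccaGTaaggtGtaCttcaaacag
Zar1l: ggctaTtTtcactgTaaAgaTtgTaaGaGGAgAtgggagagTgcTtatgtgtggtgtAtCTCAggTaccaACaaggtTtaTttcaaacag
The Y-box stretch covers bases 173 to 262 of the Ybx1 coding sequence and 287 to 376 of that of Ybx2, in the cold-shock domain, the nucleic-acid-binding domain that the family shares.
Ybx1: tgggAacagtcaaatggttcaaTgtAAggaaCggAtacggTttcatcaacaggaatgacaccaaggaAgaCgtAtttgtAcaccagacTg
Ybx2: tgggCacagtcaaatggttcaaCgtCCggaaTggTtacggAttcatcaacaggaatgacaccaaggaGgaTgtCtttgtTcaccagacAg
The LSM14 stretch covers bases 880 to 969 of the Lsm14a coding sequence and 514 to 603 of that of Lsm14b, around the FDF motif with which LSM14 proteins contact DDX6.
Lsm14a: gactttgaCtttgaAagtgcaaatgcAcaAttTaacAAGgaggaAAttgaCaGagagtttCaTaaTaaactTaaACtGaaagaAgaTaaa
Lsm14b: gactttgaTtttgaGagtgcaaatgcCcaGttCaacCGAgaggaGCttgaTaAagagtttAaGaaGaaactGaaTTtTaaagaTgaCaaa

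Within these windows 67 of 90 bases were the same in Zar1 and Zar1l, 78 in Ybx1 and Ybx2, and 69 in Lsm14a and Lsm14b. Over the aligned coding sequences the identity was 63.8%, 67.0% and 65.4%. No pair shared a coding word of 50 bases, so exact coding stretches of that length tell the partners apart. Other copies are closer. Of the 50-base words of the Zar1 transcript, 315 of 1380, or 22.8%, also occur in Gm15847, a transcribed pseudogene at chr5:73013528-73017236 on the plus strand, and 50 of them in Gm42668, annotated over the same place. Ybx1 shares words with 6 processed pseudogenes, of which Gm11560 on chromosome 11 holds the largest part (14.3% of words) and Ybx1-ps2 on chromosome 6 the next (12.0%). Ddx6 shares 4.49% of its words with the processed pseudogene Gm13410 on chromosome 2. Reads from these stretches could have been assigned to either copy or dropped, so the levels of Zar1, Ybx1 and Ddx6 are uncertain to that extent. None of these copies had a row in the table, so their levels are unknown. The transcripts of Zar1l, Ybx2, Patl2, Lsm14a and Lsm14b shared no 50-base word with another gene, and no annotated exon of another gene overlapped an exon of these 8 transcripts.

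Zar1 stood apart from the other storage genes. It was 6.45 times as abundant in PB2 as in the zygote, while its paralog Zar1l was slightly lower in PB2, a direction that turned with the length trend removed (log2 ratio of 0.15). Both Y-box genes and both Lsm14 genes were about 1.88 to 2.55 times as abundant in PB2, and Patl2 and Ddx6, the least abundant of the 8, lay close to equal. In all, 6 of the 8 genes had the higher value in PB2 and 2 in the zygote, against 59.2% and 40.0% of all genes compared. All 8 passed the filter of 1 TPM. At least 2-fold higher in PB2 on the log2 ratio were 3 of the 8, Zar1, Ybx2 and Lsm14b, beside 18.9% of all genes compared. None was at least 2-fold higher in the zygote, beside 8.09% of all genes. The median log2 ratio of the 8 genes was 0.93, against 0.21 over all genes compared. With all ratios centred on that median, the same 3 genes passed 2-fold, while the shares over all genes became 13.0% towards PB2 and 12.1% towards the zygote.

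**Figure D1:**
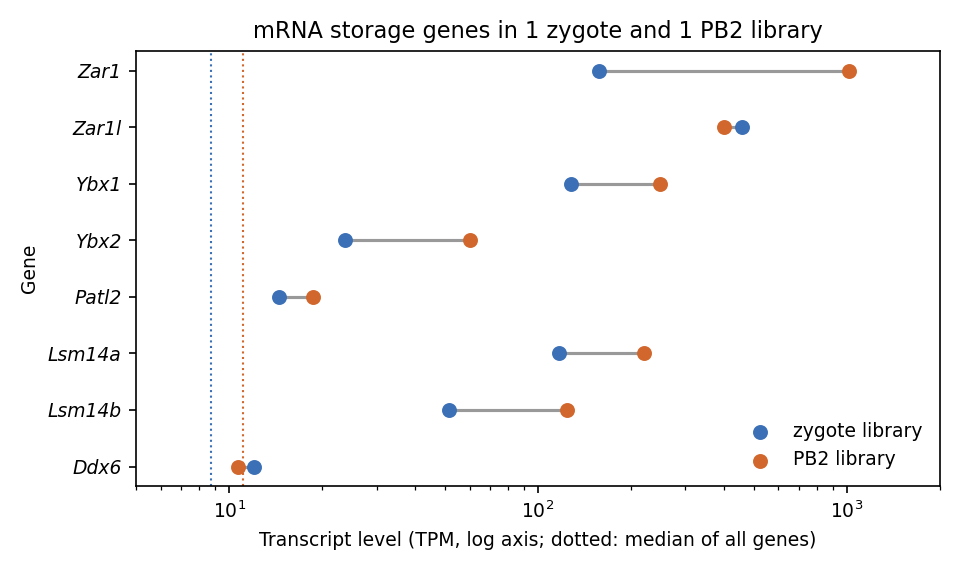
Level of each storage gene in TPM on a log axis in the zygote library and the PB2 library (1 point per library, with dotted lines at the median of all genes, 8.7 TPM (zygote) and 11.1 TPM (PB2)). Zar1 lies at 157.9 TPM (zygote) and 1019.2 TPM (PB2), and Zar1l and Ddx6 are the genes whose PB2 point lies to the left.

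Zar1 (zygote arrest 1, ENSMUSG00000063935) is an oocyte gene named for the one-cell arrest of embryos from females without it. Its transcript lies on the minus strand of GRCm38 at chr5:72577114-72581254, with 4 exons and 1429 bases. The zygote library held Zar1 at 157.9 TPM and the PB2 library at 1019.2 TPM, which gave a log2 ratio of 2.68. Rounding of the deposited values to 1 decimal allows a plain ratio between 6.45 and 6.46. It was the most abundant of the 8 genes in PB2 and the second in the zygote, and its rank among all genes of the table was 852 in the zygote and 107 in PB2. Out of 10645 compared genes, 27 exceeded it in log2 ratio. Restricted to the 1287 genes of 100 TPM or more in the zygote library, whose median log2 ratio was -0.23 and of which 6.99% were at least 2-fold higher in PB2, 1 exceeded Zar1, namely Lars2, with 174.9 and 1352.3 TPM. These genes were picked by the zygote value, the denominator of the ratio, which by itself favours low ratios among them. The Lars2 transcript is known to collect reads of ribosomal RNA in some libraries, and since this was not tested here its values are uncertain.

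Zar1l (zygote arrest 1-like, ENSMUSG00000056586) encodes the other ZAR1 family protein of the mouse oocyte. It lies on the same chromosome, on the minus strand at chr5:150507055-150518164, with 4 exons and an annotated transcript of 895 bases. Its level was 459.3 TPM in the zygote library against 399.1 TPM in the PB2 library, a plain ratio of 0.87 and a log2 ratio of -0.20, which became 0.15 with the loess trend on transcript length removed. It was the most abundant of the 8 genes in the zygote, at rank 290 of the table, and at rank 315 in PB2. The annotated transcript has UTRs of 5 and 14 bases and no poly(A) signal was found in it, so it may be incomplete. TPM scales by length and the length used by the authors is not known, so the level and rank of Zar1l are uncertain. The log2 ratio of Zar1l was exceeded by 68.3% of all compared genes. Among the 1287 genes of 100 TPM or more in the zygote library, 619 exceeded it. The median log2 ratio of those 1287 genes was -0.23, near that of Zar1l. Within the pair, Zar1 held 25.6% of the summed TPM in the zygote and 71.9% in PB2. The ratio of Zar1 to Zar1l was thus 0.34 in the zygote and 2.55 in PB2, a 7.43-fold difference that does not depend on how the libraries are scaled to each other. Each of the 2 ratios depends on the transcript lengths used for TPM. With the GC trend removed the log2 ratios of Zar1 and Zar1l were 1.67 and -0.66, and with the length trend removed 2.70 and 0.15. Both times they lay nearer to each other than the uncorrected 2.68 and -0.20. The sum of both genes was 617.2 TPM (zygote) and 1418.3 TPM (PB2).

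The Y-box genes were both higher in PB2. Ybx1 (Y box protein 1, ENSMUSG00000028639), made in most tissues, lies on the minus strand at chr4:119277981-119294604 and stood at 128.1 TPM in the zygote library against 248.3 TPM in the PB2 library (log2 ratio 0.95). Ybx2 (Y box protein 2, ENSMUSG00000018554), the germ-cell member of the family also called MSY2, lies on the plus strand at chr11:69935796-69941605 and stood at 23.7 TPM in the zygote library against 60.4 TPM in the PB2 library (log2 ratio 1.31). The mRNA of Ybx2, whose protein is an abundant mRNA-coating protein of the oocyte, was the lower of the pair in both libraries. Ybx1 was 5.41 times as abundant as Ybx2 in the zygote and 4.11 times in PB2, so the order within the pair was the same and its balance moved little. Ybx1 lay just under 2-fold, with a plain ratio of 1.94. The summed level of the pair was 151.8 TPM (zygote) and 308.7 TPM (PB2). Ybx3, a further Y-box gene that is not among the 8, had 62.7 and 171.3 TPM, a log2 ratio of 1.44.

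Among the genes of the DDX6 repressor complex, the LSM14 genes were higher in PB2. Lsm14a (ENSMUSG00000066568), whose protein seeds processing bodies, lies on the minus strand at chr7:34344646-34389687 and stood at 117.1 TPM in the zygote library against 219.6 TPM in the PB2 library (log2 ratio 0.90). Lsm14b (ENSMUSG00000039108), the paralog needed for meiotic maturation of the mouse oocyte, lies on the plus strand at chr2:180026398-180035465 and stood at 51.5 TPM in the zygote library against 124.4 TPM in the PB2 library (log2 ratio 1.26). The plain ratios were 1.88 and 2.42, with Lsm14a under 2-fold and Lsm14b over it. Lsm14a was 2.27 times as abundant as Lsm14b in the zygote and 1.77 times in PB2. The sum of both was 168.6 TPM (zygote) and 344 TPM (PB2).

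Patl2 (ENSMUSG00000027233), the oocyte form of the PAT1 translational repressors, lies on the minus strand at chr2:122120108-122186189. Its level was 14.5 TPM in the zygote library against 18.7 TPM in the PB2 library, a log2 ratio of 0.35, close to the median of all genes. Its somatic paralog Patl1, which is not among the 8, had 12.2 and 23.2 TPM, a log2 ratio of 0.87. Ddx6 (ENSMUSG00000032097), the helicase at the centre of the complex, lies on the plus strand at chr9:44604892-44640731. Its level was 12.0 TPM in the zygote library against 10.7 TPM in the PB2 library, a log2 ratio of -0.15, and it was the least abundant of the 8 genes in both libraries. In PB2 it lay near the middle of the table, with 50.6% of genes above it. Per length, the mRNA of its partner Lsm14a was 9.76 times as abundant as that of Ddx6 in the zygote and 20.5 times in PB2.

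The order of levels in the zygote was Zar1l, Zar1, Ybx1, Lsm14a, Lsm14b, Ybx2, Patl2 and Ddx6. In PB2 it differed only in the exchange of Zar1 and Zar1l. With no replicates it is not known which neighbours in this order differ beyond the spread of a library. The place of Zar1l also depends on the transcript length used for TPM, which is not known. The range from the lowest to the highest gene was 38.3-fold in the zygote and 95.3-fold in PB2. Together the 8 genes summed to 964.1 TPM (zygote) and 2100.4 TPM (PB2), a ratio of 2.18. Zar1 made up 16.4% of that sum in the zygote and 48.5% in PB2, and without it the sums were 806.2 and 1081.2 TPM.

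**Figure D2:**
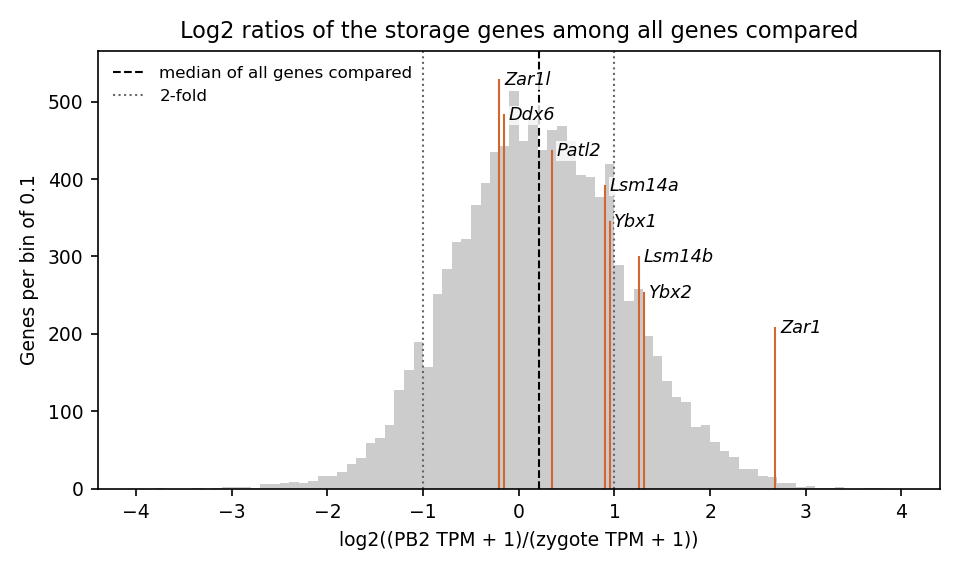
Number of genes in each bin of 0.1 of the log2 ratio over the 10645 genes compared (grey), with an orange line for each storage gene whose height only separates the labels, a dashed line at the median of 0.21 and dotted lines at 2-fold. Zar1 lies at 2.68 in the upper tail, Ybx2 and Lsm14b lie past 2-fold, and Zar1l, Ddx6 and Patl2 lie in the body of the distribution.

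Across the table the log2 ratio moved with the GC content of the transcript. Over 10606 genes, which are not independent replicates, Spearman's rho was 0.44, and when genes were put in 10 bins of equal size by GC content, 3.30% of the lowest bin and 47.3% of the highest bin passed 2-fold towards PB2. The 2 storage genes with the largest log2 ratios were also the richest in GC. Zar1 has a GC content of 62.1% and Ybx2 of 63.4%, both in the highest bin, while Ddx6 has the lowest at 43.4%. Zar1 stood high among genes of like GC as well, with a larger log2 ratio in 15 of the 1061 genes of its bin, whereas 346 of the same 1061 genes had a larger one than Ybx2. Lsm14b, at 49.8%, was exceeded by 85 of 1061 genes of its bin, and Lsm14a, at 46.0%, by 115 of 1061. Zar1l has a GC content of 52.4%, and 77.8% of the genes in its bin had a larger log2 ratio than it.
With the loess trend on GC content subtracted from the ratios, Zar1 had a log2 ratio of 1.67, Lsm14b of 0.99, Lsm14a of 0.91, Ybx1 of 0.51 and Ybx2 of 0.27. Patl2 came to 0.062, Ddx6 to -0.0064 and Zar1l to -0.66. Zar1 was then the single member past 2-fold, beside 9.08% of all genes. The part of GC content in these differences was not tested.

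**Figure D3:**
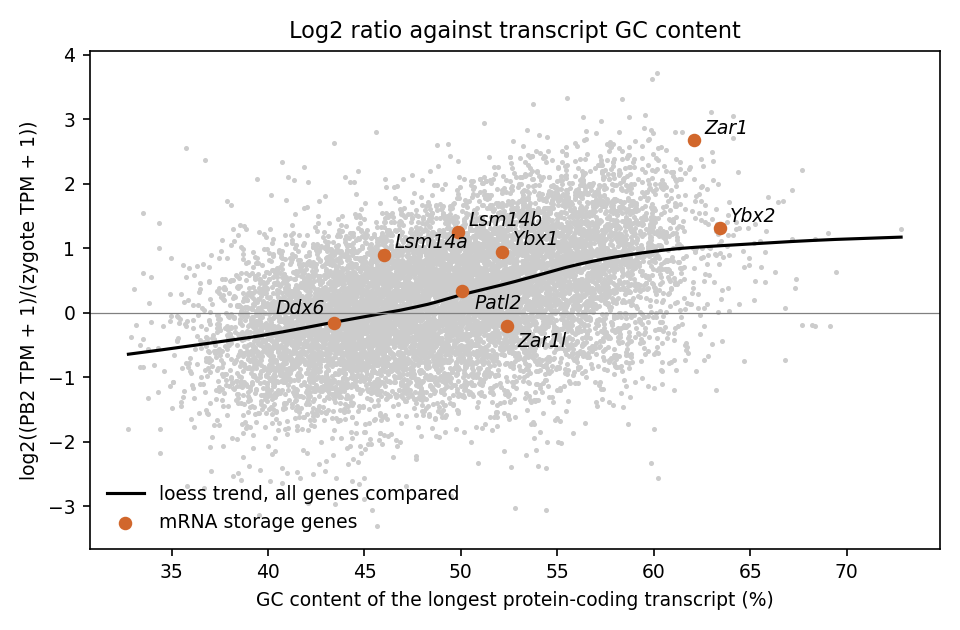
Log2 ratio of each gene compared against the GC content of its longest protein-coding transcript in percent (grey), with the loess trend as a line and the storage genes in orange. Zar1 lies 1.67 above the trend at 62.1% GC, Ybx2 lies 0.27 above it at 63.4%, and Zar1l lies at -0.66 from it at 52.4%.

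Stored mRNAs often carry cytoplasmic polyadenylation elements (CPE) in the 3′ UTR, short sites bound by CPEB proteins through which the poly(A) tail is shortened and later extended. The 3′ UTRs of the 8 transcripts were searched on the sense strand for TTTTAT or TTTTAAT, and for the poly(A) signals AATAAA and ATTAAA within 50 bases of the end. The site nearest to the 3′ end is shown for the members whose site lies within 100 bases of it, and the poly(A) signal for Zar1, which has no such element. Each line has 30 bases with the site in capitals.
Ybx1, bases 320 to 349 of the 3′ UTR: aagaacttcatTTTTAATttgtaataaagt
Ybx2, bases 341 to 370 of the 3′ UTR: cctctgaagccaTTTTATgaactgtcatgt
Lsm14a, bases 1294 to 1323 of the 3′ UTR: ccactttgtgtTTTTAATaaaggccatgga
Zar1, bases 114 to 143 of the 3′ UTR: ataaagcctgtgAATAAAaggtattgcaaa

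The element starts 88 bases before the annotated end in Ybx1, 62 in Ybx2 and 42 in Lsm14a, whose last poly(A) signal starts 24 bases before the end. No poly(A) signal was found within 50 bases of the end of Ybx2. An element within 100 bases before such a signal, or past it, occurs in Ybx1 and Lsm14a but not in Ybx2. Among genes of like 3′ UTR length the share with one was 18.7% for Ybx1, 18.5% for Ybx2 and 20.1% for Lsm14a, beside 19.3% of all genes compared with a 3′ UTR. Lsm14b has 2 elements and Ddx6 has 7, but in both the last one starts far from the end (820 and 828 bases before it). Zar1, Zar1l and Patl2 have none in 3′ UTRs of 146, 14 and 366 bases. Of the genes compared whose 3′ UTR is within 1.5 times the length of that of Zar1, 20.3% of 834 hold an element, against 40.7% of 1847 for the length of Ybx1, 40.2% of 1844 for Ybx2, 37.4% of 1716 for Patl2, 74.9% of 3044 for Lsm14a, 71.3% of 2959 for Lsm14b and 95.2% of 1539 for Ddx6. None of the 29 genes with a 3′ UTR near the length of that of Zar1l holds one, so its annotated 3′ UTR is too short for the search to be informative.

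Of a list of 44 other genes of translational repression and mRNA binding, 41 were in the table and 40 were compared. The list was written by hand with earlier results of these data known. At least 2-fold higher in PB2 were 12 of the 40, or 30%, 1 was at least 2-fold higher in the zygote, and the median log2 ratio was 0.57, beside 18.9%, 8.09% and 0.21 over all genes compared. With the GC trend removed 7 of the 40 passed towards PB2, or 17.5%, beside 9.08% of all genes, and the median was 0.40. With the length trend removed 7 passed, beside 12.1% of all genes, and the median was 0.23, where the median of all genes was 0.0029. Atxn2l, which encodes an ataxin-2-like stress granule protein, stood at 60.2 TPM in the zygote library against 300.0 TPM in the PB2 library (log2 ratio 2.30). Cpeb1, the CPE-binding protein that represses stored mRNA in the oocyte, had 74.6 and 198.6 TPM, a log2 ratio of 1.40.
The others past 2-fold in PB2 were Upf1 (log2 ratio of 1.99), Nanos1 (1.69), G3bp1 (1.48), Fxr2 (1.43), Pabpc1 (1.42), Eif4e3 (1.24), Igf2bp2 (1.24), Tdrd5 (1.08), Pabpc1l (1.06) and Rbpms2 (1.02). Igf2bp2, Tdrd5, Pabpc1l and Rbpms2 were under 2-fold with either trend removed, Fxr2 (0.54) with the GC trend removed and Eif4e3 with the length trend removed. Of these, Pabpc1 was at 0.50 and 3.0 TPM, and 20.7% of its 50-base words occur in other genes. The same holds for 16.6% of those of Rbpms2, 12.4% of those of Eif4e3 and 8.89% of those of G3bp1, which makes their levels uncertain. Ddx4, the germ-cell helicase, was the gene past 2-fold in the zygote, with 31.0 TPM there and 14.0 TPM in PB2, and its log2 ratio was -0.93 with the GC trend removed. The most abundant members in the zygote were Dazl, a germ-cell translation regulator, with 2285.8 and 1409.9 TPM, Cnbp with 464.5 and 309.0 TPM and Rbpms2 with 363.4 and 739.4 TPM. Eif4enif1, which encodes the eIF4E transporter that binds DDX6, had 131.9 and 148.2 TPM, a log2 ratio of 0.17, and Eif4e1b, the oocyte cap-binding protein, had 161.3 and 137.4 TPM, a log2 ratio of -0.23.

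A list of 24 messages known to be stored in the oocyte and recruited at maturation was also written by hand with earlier results known. All 24 were compared, 12 leaned to PB2 and 12 to the zygote, and the median log2 ratio was -0.024. Past 2-fold were 5 in PB2, or 20.8% beside 18.9% of all genes compared, and 1 in the zygote, or 4.17% beside 8.09%. The share past 2-fold in PB2 was thus near that of all genes. With the length trend removed the counts were 3 and 3. Many of the 24 are abundant, with zygote levels from 5.9 to 16642 TPM. Among all genes of 100 TPM or more in the zygote library, 6.99% passed 2-fold in PB2 and the median log2 ratio was -0.23. The 24 were not compared with genes of like level. Mos, the kinase that holds the egg in metaphase, stood at 62.7 TPM in the zygote library against 310.1 TPM in the PB2 library (log2 ratio 2.29). Cdc20, the activator of the anaphase-promoting complex, had 96.0 and 392.0 TPM, a log2 ratio of 2.02, with 11.6% of its 50-base words also in pseudogenes and other genes. The other genes past 2-fold in PB2 were Dcp1a (1.34), Tex19.1 (1.30) and Bub1b (1.11). Bub1b was under 2-fold with either trend removed, Tex19.1 (0.83) with the GC trend removed and Dcp1a with the length trend removed. Tpx2, a spindle assembly factor, stood at 268.8 TPM in the zygote library against 126.6 TPM in the PB2 library (log2 ratio -1.08). The most abundant stored messages leaned to the zygote or were near equal, with Btg4, an adaptor of mRNA deadenylation, at 16642 and 9471 TPM, Spin1 at 5277 and 5102 TPM and Dazl, which is in both lists, as given above. They were picked by the zygote value, the denominator of the ratio, which by itself favours low ratios among them.

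**Figure D4:**
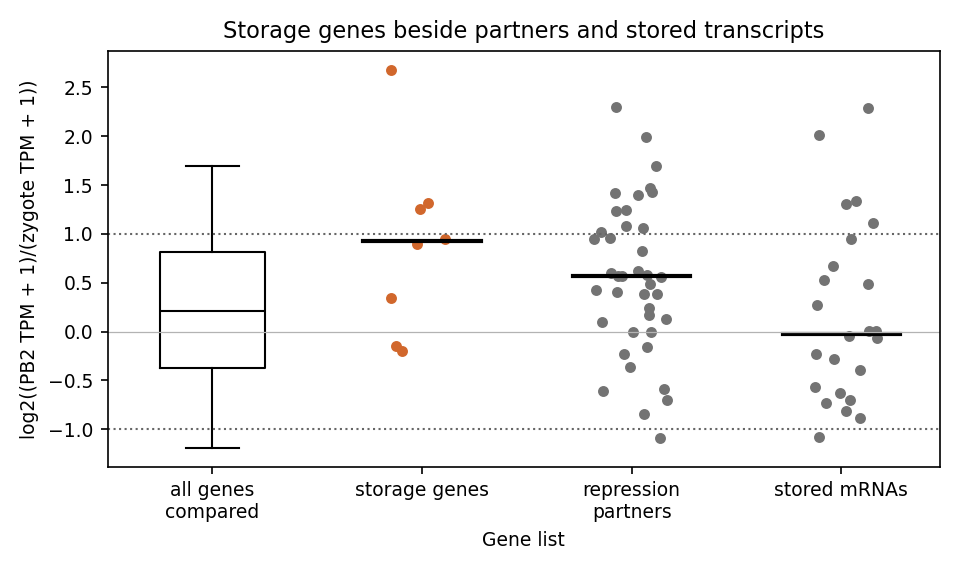
Log2 ratio of all genes compared (box from the lower to the upper quartile with the median, whiskers from percentile 5 to 95), of the 8 storage genes, of the 40 repression partners and of the 24 stored mRNAs (points, with a bar at the median), with dotted lines at 2-fold. The medians are 0.21, 0.93, 0.57 and -0.024, and the points of the lists overlap.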

How the data were processed

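RNA-seq of 1 PB2 library and 1 zygote library was analysed. Per the study's methods, the authors aligned reads with HISAT2 2.0.4, counted them per gene with HTSeq 0.6.1p1 on an Ensembl annotation and named DESeq2 1.18.1 for normalization. The submitters' processing notes list both OryCun2.0, a rabbit build, and GRCm38, and the gene identifiers are mouse. The authors deposited TPM values rounded to 1 decimal, and how TPM was computed, the read length and the depth are not given in the sources used here. Columns were matched to samples by name, with 0 left over.

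From these values log2 ratios were computed with a pseudocount of 1 TPM, which understates the change of low genes, over genes with at least 1 TPM in either library, and the threshold was 2-fold. No test was run, since each group has 1 library. GC content, length, UTRs and coordinates are those of the longest protein-coding transcript in GENCODE M21 (GRCm38), found for 11221 of 11262 genes. Loess trends used a span of 0.3. Words of 50 bases were searched on both strands of all GENCODE M21 transcripts. Coding sequences were aligned globally with Biopython 1.88.

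The 8 genes and the lists were chosen with earlier results of these data known. All 8 were named, and from both other lists those past 2-fold and the 3 most abundant in the zygote. Lars2, Eif4enif1, Eif4e1b, Ybx3, Patl1 and the markers given were named after their values were seen. The alternatives were pseudocounts of 0.1 and 0.01, other scalings, centring, removal of GC or length trends, other filters and other thresholds. The log2 ratio, the filter and the removal of a GC trend were tested on simulated data. The sequence searches, the alignments and the list counts were not. Tables were handled with pandas 2.3.3 and numpy 2.4.6 in Python 3.11.15, loess came from statsmodels 0.14.6, rank correlations from scipy 1.17.1 and plots from matplotlib 3.10.9.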

Additional observations from a re-analysis of the deposited data

How the results depend on the processing

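No paired analysis was possible because each group has 1 library, and no library could be left out. A log2 ratio was taken as moved from a shift of 0.5, a count or sum from a change of more than 1.5 times. Of the values under the alternatives 147 stayed within these limits and 22 moved, and no log2 ratio past 2-fold changed sign. Some of the 147 could not have moved. The other filters leave the ratios of the 8 genes unchanged, centring shifts every log2 ratio by 0.21, and the zygote scaling used a factor of 1.06. The tally is therefore no measure of how firm the values are. With the GC trend removed, the median log2 ratio of the 8 genes was 0.39, 1 gene (Zar1) was past 2-fold in PB2, and the log2 ratios of Zar1 and Ybx2 were 1.67 and 0.27. At a threshold of 1.5-fold 5 of the 8 genes passed and at 4-fold 1, which follows from the thresholds. Rescaling after removal of the 50 top genes and of those encoded by mitochondrial DNA raised the summed level of the 8 genes to 3515 TPM (PB2) and 1640 TPM (zygote), since the same total is spread over fewer genes. The log2 ratio of Zar1 ran from 1.67 to 2.70 over 9 alternatives. The small log2 ratio of Zar1l ran from -0.66 to 0.15, with the positive value after removal of the length trend. With that trend removed Lsm14b was at 0.97, just under 2-fold, which left 2 genes past it, exactly at the limit of 1.5 times. The counts of both other lists were recomputed under alternatives chosen after seeing the data. Of the repression partners (12 and 1 past 2-fold in PB2 and in the zygote), 7 and 0 passed with the GC trend removed and 7 and 3 with the length trend removed, 2 passed in the zygote with centring, 5 in the zygote at 1.5-fold, and 1 and 0 at 4-fold. Of the stored mRNAs (5 and 1), 3 and 3 passed with the length trend removed, 3 in the zygote with centring, 6 in the zygote at 1.5-fold, and 2 and 0 at 4-fold. Depth is unknown, so no counting error can be given.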

Other observations

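Over all genes compared, the median log2 ratio differed little between genes with and without the CPE letters searched in the 8 transcripts. The 6686 genes with TTTTAT or TTTTAAT in the 3′ UTR had a median log2 ratio of 0.22, and the 3823 genes without either had 0.20. The median GC content of the transcripts was 47.1% with an element and 52.9% without.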
